A study of Mus musculus with 23 samples.

Results

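Interferon regulatory factors (IRFs) form a family of transcription factors that share a DNA-binding domain and recognise GAAA-type elements in the promoters of interferons and interferon-induced genes. The 8 family members Irf1, Irf2, Irf3, Irf4, Irf5, Irf7, Irf8 and Irf9 were chosen by name among 25998 measured genes, and their 9 array probes were found through the accession of each probe. Irf1 had 2 probes and each other member had 1.

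In macrophages, IRFs act at several steps of the response to lipopolysaccharide (LPS). IRF3, IRF5 and IRF7 are present as latent proteins that are activated downstream of Toll-like receptor adaptors and switch on interferon and cytokine genes, while IRF9 acts later, in cells that answer secreted interferon. IRF1 is itself made after stimulation, IRF2 competes with IRF1 for the same elements, and IRF4 and IRF8 are blood cell factors that bind together with partners such as PU.1.

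The arrays compared bone marrow-derived macrophages (BMDM) of 3 genotypes of C57BL/6 mice: wild-type (wt), MK2-/-, which lack the p38 MAPK-activated kinase MK2, and MK2/3-/-, which lack MK2 and its relative MK3. Marrow came from male animals aged 10 to 14 weeks and was grown for 9 days with 10 ng/ml of M-CSF, the growth factor that drives macrophage differentiation. Cells then received medium alone or 100 ng/ml LPS for 120 min, which gave 6 groups of 4 arrays, except MK2-/- in medium with 3. The study asks what MK2 and MK3 contribute, jointly and separately, to the transcript response to LPS. Replicates are numbered in the labels and come from separate experiments per the methods, so p-values measure the spread between these cultures, and the number of arrays limits their precision. All arrays of a genotype were on 1 slide, 3 slides in all, so that genotype and slide cannot be told apart.

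The targeted genes were read first. Mapkapk2, which encodes MK2, had a log2 difference of -3.31 between MK2-/- and wt BMDM in medium (limma, adjusted p = 5.75e-06) and -2.81 after LPS (adjusted p = 2.4e-05), on all arrays of the knockout. Between MK2/3-/- and wt it was -3.50 in medium and -3.01 after LPS (limma, adjusted p = 2.98e-07 and 2.59e-06). The methods' t-test on log2 values called neither of these 2 (adjusted p = 0.06 and 0.118), and on linear values it lost the call after LPS. Mapkapk3, which encodes MK3, differed by -0.03 between MK2-/- and wt after LPS (adjusted p = 0.992), and by -3.30 between MK2/3-/- and wt after LPS (adjusted p = 1.14e-09), again on all 4 arrays. In medium the Mapkapk3 difference between MK2/3-/- and wt was smaller, -1.62 (adjusted p = 5.73e-05). With LPS Mapkapk3 fell by 1.17 on the log2 scale in MK2/3-/- BMDM (adjusted p = 2.38e-05), and its response differed from that of wt by -1.68 (limma interaction, adjusted p = 0.0113). From that of MK2-/- it differed by -1.41, which was not called (limma interaction, adjusted p = 0.356). The methods' t-test on log2 values did not call Mapkapk2 between MK2-/- and wt BMDM after LPS (adjusted p = 0.137) or in medium (0.431), or Mapkapk3 between MK2/3-/- and wt in medium (0.119), although no array overlapped. Limma fitted to the compared groups alone also lost the Mapkapk2 call after LPS (adjusted p = 0.0738), and the t-test on linear values lost it too (0.768) and that of Mapkapk3 between MK2/3-/- and wt BMDM after LPS (0.112). Both probes stayed well above background in the knockouts, and whether they lie in the deleted parts is not given in the sources used here. Of the macrophage markers 6 were measured, Csf1r and Adgre1 among them, and these 6 were well above background on all 23 arrays. Of the T cell markers Cd3e was well above background on all 23 arrays, Cd4 by its best probe on 23, Cd8a on 2 and Cd3d on 0. In such bulk samples, a change in the number of cells of a type and a change in RNA per cell cannot be told apart.

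LPS raised Irf1 and Irf4 transcripts in all 3 genotypes, and the remaining calls went to smaller shifts of Irf5, Irf3, Irf2 and, in MK2/3-/- BMDM, a 4.32-fold higher Irf8. A member was called when its adjusted p from limma was under 0.05 over all genes. In wt BMDM 3 of the 8 members were higher after LPS (Irf1, Irf4 and Irf5), where 8.26% of all genes were. In MK2-/- BMDM 2 members were higher (Irf1 and Irf4), against 8.5% of all genes. In MK2/3-/- BMDM 6 members were higher (Irf1, Irf2, Irf3, Irf4, Irf5 and Irf8), against 11.9% of all genes. No member was called lower with limma in any of these 3 comparisons, and at unadjusted p under 0.05 the members called were 4, 3 and 7, again all higher, where 26.8%, 29% and 34.5% of all genes differed in either direction. After adjustment over all genes the methods' t-test called 3, 1 and 3 members on log2 values (3013, 3779 and 4678 of all genes) and 0, 0 and 0 on linear values (2413, 3318 and 4049). Unadjusted, as the methods use it, that t-test on log2 values called 4, 3 and 7 members and 7030, 7570 and 8061 of all genes. Limma fitted to the compared groups alone called 3, 1 and 4 members and 3535, 4080 and 4983 of all genes.

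Over the 8 members the median log2 difference came to 0.47 for wt, 0.51 for MK2-/- and 1.00 for MK2/3-/- BMDM, beside 0.00, -0.01 and -0.02 over all genes. The 3 comparisons use separate arrays but a shared estimate of the spread. Scaling each array to its 75th percentile moved the median of all genes to 0.15, 0.20 and 0.06, and Irf3 and Irf9 were then called higher in wt and, with Irf5, in MK2-/- BMDM, so that 5, 5 and 7 members were called. The share of all genes called under that scaling is not given here, so these counts are no result about the members in particular. With the normexp background correction Irf9 was called higher in wt and MK2/3-/- BMDM. Cultures as a replicate block added Irf3 in wt BMDM and changed no other call of a member.

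**Figure D1:**
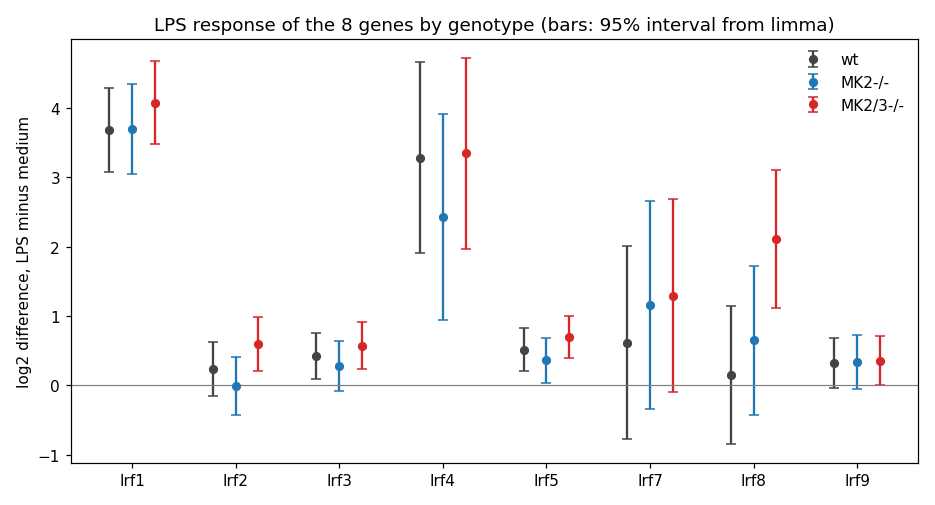
Log2 difference between LPS and medium (vertical axis) for each of the 8 genes (horizontal axis) in wt, MK2-/- and MK2/3-/- BMDM, with the 95% confidence interval from limma; Irf1 is read from the probe of NM_008390. Irf1 and Irf4 lie highest in all genotypes, and Irf8 ranges from 0.16 in wt to 2.11 in MK2/3-/- BMDM.

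Irf1, an activator of interferon-induced and antigen presentation genes, was measured by a bright probe (NM_008390) that was well above background on all 23 arrays. In wt BMDM its log2 signal was 13.09, 13.43, 13.56 and 13.16 in medium and 17.24, 17.61, 17.24 and 15.89 after LPS. The MK2-/- values were 13.73, 13.59 and 13.37 in medium and 17.35, 17.65, 17.12 and 16.91 after LPS. For MK2/3-/- BMDM they were 13.78, 13.66, 13.59 and 13.37 in medium and 17.96, 18.04, 17.65 and 17.06 after LPS. Every LPS array lay far above every medium array of all genotypes, replicate 4 was the lowest LPS array in each genotype and replicate 2 the highest. The genotypes overlapped in medium and after LPS.

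The induction of Irf1 reached 12.9-fold for wt (log2 3.68, 95% confidence interval 3.08 to 4.29, adjusted p = 1.74e-08), 13.0-fold for MK2-/- (log2 3.70, adjusted p = 5.07e-08) and 16.9-fold for MK2/3-/- BMDM (log2 4.08, adjusted p = 3.34e-09), by limma over all probes and on 4 of 4 LPS arrays each. The exact two-sided permutation test gave p = 0.0286 for each, the smallest that 4 against 4 or 4 against 3 arrays allow. After LPS the MK2/3-/- mean exceeded that of wt by 0.68 (95% confidence interval 0.08 to 1.28, unadjusted p = 0.0287 and adjusted p = 0.285 with limma, exact permutation p = 0.171), which was not called after adjustment over all probes. A difference between genotypes in Irf1 induction was not shown by the limma interaction, with differences of 0.01 for MK2-/- against wt (adjusted p = 1.00) and 0.39 for MK2/3-/- against wt (adjusted p = 1.00).

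The other probe of Irf1 (NM_001159393), which shows the largest induction in wt and therefore stands for the gene in the counts, was not well above background on any of the 11 medium arrays. After LPS its log2 signal was 7.57, 8.74, 8.02 and 6.20 in wt BMDM, 8.27, 8.92, 7.91 and 7.36 in MK2-/- and 9.03, 9.41, 8.24 and 7.38 in MK2/3-/-. Its LPS signal was at least 17.5-fold, at least 18.5-fold and at least 26.6-fold above medium in wt, MK2-/- and MK2/3-/- BMDM (adjusted p = 7.87e-08, 3.06e-07 and 2.39e-08). For these bounds the mean after LPS was set against the mean of, on each medium array, the higher of the probe's own signal and the lowest signal among probes well above background. The bright probe and this probe thus both showed the induction, on every LPS array.

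Irf2, a factor that occupies the same elements as IRF1 and mostly restrains them, had log2 signals of 10.12, 10.05, 10.61 and 10.33 in wt medium and of 10.09, 10.75, 10.78 and 10.46 in wt LPS. The MK2-/- arrays gave 10.49, 10.31 and 10.64 in medium and 10.46, 10.67, 10.35 and 10.42 after LPS. The MK2/3-/- arrays gave 10.27, 10.75, 10.23 and 10.58 in medium and 10.98, 11.27, 11.32 and 10.63 after LPS. Medium and LPS arrays were intermixed in wt and MK2-/- BMDM, and in MK2/3-/- BMDM 3 LPS arrays lay above all medium arrays while replicate 4 did not.

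In MK2/3-/- BMDM Irf2 was 1.51-fold higher after LPS (log2 0.59, 95% confidence interval 0.21 to 0.98, adjusted p = 0.0229 with limma; exact permutation p = 0.0571). This call was lost without MK2/3-/- LPS replicate 2 (log2 0.52, adjusted p = 0.0764), LPS replicate 3 (0.50, 0.0781), medium replicate 1 (0.53, 0.0617) or medium replicate 3 (0.52, 0.0771), with the compared groups alone (0.0876), and under the methods' t-test on log2 (0.103) and linear values (0.116), within a range over all settings of 0.00579 to 0.116. The differences for Irf2 were 0.24 for wt (adjusted p = 0.472) and -0.01 for MK2-/- BMDM (adjusted p = 0.991), the latter turning to 0.06 under 75th percentile scaling. The induction in MK2/3-/- exceeded that in MK2-/- BMDM by 0.60 (limma interaction, unadjusted p = 0.0403, adjusted p = 1.00) and that in wt by 0.35 (adjusted p = 1.00), so a difference between genotypes in the Irf2 response was not shown.

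Irf3, the factor that is phosphorylated by TBK1 after TRIF signalling and drives early Ifnb1 transcription, showed log2 signals of 13.25, 13.43, 13.07 and 13.08 in wt medium and of 13.51, 13.33, 13.81 and 13.86 in wt LPS. Irf3 in MK2-/- BMDM stood at 13.13, 13.16 and 13.45 in medium and 13.27, 13.47, 13.67 and 13.69 after LPS. Irf3 in MK2/3-/- BMDM stood at 13.37, 13.59, 13.16 and 13.29 in medium and 13.65, 13.73, 14.20 and 14.12 after LPS. Medium and LPS arrays overlapped in wt and MK2-/- BMDM and were separate in MK2/3-/- BMDM, where replicates 3 and 4 were the brightest.

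Irf3 was 1.49-fold higher after LPS in MK2/3-/- BMDM (log2 0.57, 95% confidence interval 0.24 to 0.91, adjusted p = 0.0117 with limma, exact permutation p = 0.0286, 4 of 4 arrays). This call was lost with the compared groups alone (adjusted p = 0.0592) and under the methods' t-test on log2 (0.0639) and linear values (0.0864). In wt BMDM the difference for Irf3 was 0.42 (adjusted p = 0.081, exact permutation p = 0.0571, 4 of 4 arrays above the medium mean). It was called with cultures as a replicate block (adjusted p = 0.0479) and without wt LPS replicate 2 (log2 0.52, adjusted p = 0.0442), within a range over all settings of 0.00212 to 0.26. In MK2-/- BMDM the difference was 0.28 (adjusted p = 0.32). Between genotypes the Irf3 induction differed by 0.15 for MK2/3-/- against wt and by 0.29 for MK2/3-/- against MK2-/- (limma interaction, adjusted p = 1.00 for each).

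The level of the Irf3 transcript itself was close in wt and MK2-/- BMDM. MK2-/- minus wt was 0.04 in medium (95% confidence interval -0.32 to 0.40, adjusted p = 1.00) and -0.11 after LPS (-0.44 to 0.23, adjusted p = 0.92). MK2/3-/- exceeded MK2-/- after LPS by 0.40 (0.06 to 0.73, unadjusted p = 0.0221, adjusted p = 0.514), on 4 of 4 arrays above the MK2-/- mean. These values concern the transcript and say nothing of IRF3 protein or its phosphorylation, which arrays do not measure.

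Irf5, which is activated through MyD88 and drives inflammatory cytokine genes, varied little between replicates. Its log2 signal in wt BMDM was 13.96, 13.99, 13.96 and 13.85 in medium and 14.28, 14.72, 14.33 and 14.47 after LPS. For MK2-/- BMDM the values were 14.09, 14.04 and 14.14 in medium and 14.67, 14.47, 14.28 and 14.38 after LPS, and in MK2/3-/- BMDM 14.15, 14.01, 13.61 and 13.96 in medium and 14.86, 14.88, 14.44 and 14.34 after LPS. In every genotype each LPS array was brighter than each medium array.

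The LPS effect on Irf5 was 1.43-fold in wt (log2 0.52, 95% confidence interval 0.21 to 0.82, adjusted p = 0.0172) and 1.62-fold in MK2/3-/- BMDM (log2 0.70, adjusted p = 0.00116), each on 4 of 4 arrays and with an exact permutation p = 0.0286. In MK2-/- BMDM it was 0.36 (adjusted p = 0.129 with limma, exact permutation p = 0.0571) and was not called. The wt call of Irf5 was lost without wt LPS replicate 2 (log2 0.43, adjusted p = 0.073), without wt medium replicate 4 (0.49, 0.0514) and under the methods' t-test on linear values (0.0547), within a range over all settings of 0.00188 to 0.073. The Irf5 response of MK2-/- differed from that of wt by -0.15 (95% confidence interval -0.60 to 0.29, limma interaction, adjusted p = 1.00), so a difference between these genotypes in the Irf5 response was not shown.

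Irf7, the interferon-induced factor that amplifies type I interferon, varied widely between replicates. In wt BMDM its log2 signal was 10.53, 11.62, 13.93 and 11.65 in medium and 12.14, 13.29, 13.58 and 11.17 after LPS. MK2-/- BMDM had 11.34, 10.90 and 12.68 in medium and 12.90, 13.48, 12.33 and 12.51 after LPS, and in MK2/3-/- BMDM 11.77, 11.65, 10.61 and 11.07 in medium and 13.19, 13.70, 11.85 and 11.54 after LPS. The brightest of all 23 arrays was wt medium replicate 3, without any LPS, and medium and LPS overlapped in each genotype. The summed signal of the 3 plasmacytoid dendritic cell markers was also highest on that array (log2 16.23, against 14.18 to 15.96 on the others). That sum rests mostly on the interferon-induced Bst2, with a wt medium mean of 15.19 beside 12.04 for Tcf4 and 5.01 for Siglech. The part of such cells in the Irf7 value was not tested.

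Irf7 differed between LPS and medium by 0.61 for wt, 1.16 for MK2-/- and 1.29 for MK2/3-/- BMDM, with adjusted p of 0.649, 0.313 and 0.178 by limma. None of these passed the test, under any of the 39 settings run. Without wt medium replicate 3 the Irf7 difference in wt was 1.28 (adjusted p = 0.203), and over all settings it ranged from 0.15 to 1.28. The 95% confidence intervals, -0.77 to 2.00 in wt and -0.10 to 2.68 in MK2/3-/-, are wide and hold 0.

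Irf4, a lymphoid and myeloid factor that also binds MyD88, was well above background on every array. In wt BMDM its log2 signal was 6.43, 6.49, 4.88 and 4.75 in medium and 9.02, 7.90, 9.11 and 9.65 after LPS. MK2-/- BMDM showed 8.36, 6.39 and 5.62 in medium and 9.38, 8.14, 9.41 and 9.95 after LPS, and in MK2/3-/- BMDM 7.47, 5.68, 4.80 and 4.96 in medium and 8.53, 8.58, 9.09 and 10.09 after LPS. Medium arrays were lower than LPS arrays throughout wt and MK2/3-/- BMDM, while MK2-/- medium replicate 1 exceeded MK2-/- LPS replicate 2. The spread was wider in medium than after LPS, and replicate 2 was the lowest or next to lowest LPS array in each genotype.

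LPS raised Irf4 9.72-fold in wt (log2 3.28, standard error 0.66, adjusted p = 0.00122, exact permutation p = 0.0286) and 10.2-fold in MK2/3-/- BMDM (log2 3.34, standard error 0.66, adjusted p = 0.000714, exact permutation p = 0.0286), on 4 of 4 arrays each. In MK2-/- BMDM the fold was 5.39 (log2 2.43, standard error 0.71, adjusted p = 0.0201 with limma, exact permutation p = 0.0857). With the normexp background correction the Irf4 differences were smaller, 2.05 for wt, 1.70 for MK2-/- and 2.12 for MK2/3-/- BMDM, and still called, and without MK2-/- medium replicate 1 that in MK2-/- was 3.21. The MK2-/- call was lost without MK2-/- LPS replicate 4 (log2 2.19, adjusted p = 0.0548), medium replicate 2 (2.23, 0.0801) or medium replicate 3 (1.84, 0.129), and with the compared groups alone (0.0714). It was also lost under the methods' t-test on log2 (adjusted p = 0.126) and linear values (0.165), and without the arrays lacking a gradient fit (2.38, 0.0522; a setting chosen after seeing the data), within a range over all settings of 0.00469 to 0.165. The MK2-/- response of Irf4 differed from that of wt by -0.85 (95% confidence interval -2.88 to 1.17, limma interaction, adjusted p = 1.00). After LPS the means of the 3 genotypes lay within their spread, at 8.92 ± 0.73 (SD over 4 arrays) for wt, 9.22 ± 0.76 for MK2-/- and 9.07 ± 0.72 for MK2/3-/- BMDM.

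Irf8, which directs monocyte and dendritic cell development and acts with IRF1 or PU.1 on macrophage genes, was the only member called between genotypes. Its log2 signal in wt BMDM was 13.78, 14.72, 14.77 and 14.43 in medium and 13.99, 15.81, 14.82 and 13.70 after LPS. Irf8 in MK2-/- BMDM was at 14.45, 14.67 and 14.89 in medium and 15.14, 16.16, 15.26 and 14.71 after LPS. Irf8 in MK2/3-/- BMDM was at 14.41, 14.71, 14.58 and 14.55 in medium and 17.18, 17.64, 16.80 and 15.08 after LPS. The medium arrays of all genotypes overlapped, 3 of the MK2/3-/- LPS arrays lay above all other arrays, and MK2/3-/- LPS replicate 4 lay below wt LPS replicate 2.

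After LPS Irf8 was 4.26-fold higher in MK2/3-/- than in wt BMDM (log2 2.09, standard error 0.475, 95% confidence interval 1.1 to 3.09, adjusted p = 0.0307 with limma, 4 of 4 arrays above the wt mean), while the exact permutation test gave p = 0.0571. The call was kept in 30 of 39 settings, many of which left out an array of a group outside this comparison. It was lost without wt LPS replicate 1 (log2 1.90, adjusted p = 0.118), wt LPS replicate 4 (1.81, 0.121), MK2/3-/- LPS replicate 1 (1.92, 0.0904), MK2/3-/- LPS replicate 2 (1.77, 0.106) or MK2/3-/- LPS replicate 3 (2.05, 0.0771). It was also lost when only the compared groups were fitted with limma (adjusted p = 0.393), under the methods' t-test on log2 (0.506) and linear values (0.59), and in a setting added after seeing the data, without the 2 arrays whose headers give no gradient fit (0.05 after rounding, just above the threshold). Over all 39 settings the Irf8 difference kept its direction, from 1.77 to 2.62, with adjusted p from 0.0024 to 0.59.

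Within genotypes, LPS raised Irf8 4.32-fold in MK2/3-/- BMDM (log2 2.11, 95% confidence interval 1.12 to 3.11, adjusted p = 0.00229, exact permutation p = 0.0286, 4 of 4 arrays). The differences were 0.65 for MK2-/- (adjusted p = 0.462) and 0.16 for wt BMDM (adjusted p = 0.914), the latter -0.26 without wt LPS replicate 2 and -0.06 without wt medium replicate 1. The MK2/3-/- response exceeded that of wt by 1.96 (95% confidence interval 0.55 to 3.36), with an unadjusted p = 0.00901 and an adjusted p = 0.796 in the limma interaction test over all genes, so that it did not pass. Against MK2-/- it exceeded by 1.46 (adjusted p = 1.00). The call within MK2/3-/- BMDM was lost under the methods' t-test on log2 (adjusted p = 0.0519) and linear values (0.118).

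In order of the group means, Irf8 stood at 16.67 ± 1.12 (SD over 4 arrays) in MK2/3-/- LPS, 15.32 ± 0.61 in MK2-/- LPS, 14.67 ± 0.22 (3 arrays) in MK2-/- medium, 14.58 ± 0.95 in wt LPS, 14.56 ± 0.12 in MK2/3-/- medium and 14.43 ± 0.45 in wt medium. The last 4 of these lay within each other's spread. The difference between MK2/3-/- and MK2-/- after LPS was 1.36 (unadjusted p = 0.0102, adjusted p = 0.4) and that between MK2-/- and wt was 0.74 (adjusted p = 0.735). Summed signals of the conventional dendritic cell markers, a cell type in which IRF8 is abundant, were 9.98 to 10.89 in MK2/3-/- LPS and 9.88 to 10.97 in wt LPS on the log2 scale. In medium these sums were lower, 6.31 to 8.03 in MK2/3-/- and 6.06 to 7.11 in wt, and the markers went different ways between LPS and medium. The log2 difference of Zbtb46 was 5.49 for wt, 5.4 for MK2-/- and 5.77 for MK2/3-/-, that of Flt3 was 0.06, -0.08 and -0.07, and that of Cd209a was 0.39, -0.61 and 0.95. After LPS the sums rested mostly on Zbtb46, with a wt mean of 10.14 beside 5.63 for Flt3 and 3.96 for Cd209a. Between MK2/3-/- and wt after LPS, Zbtb46 differed by -0.07, Flt3 by 0.48, Cd209a by 1.37 and Xcr1 by -0.35. Of the neutrophil or granulocyte precursor markers, Mpo differed by 1.91, Elane by -0.39 and S100a8 by -0.21. None of these was called by limma (adjusted p from 0.315 to 0.968). Flt3 was well above background on 23 arrays, Zbtb46 on 22, Cd209a on 11 and Xcr1 on 1. Elane and S100a8 were well above background on 23 arrays and Mpo on 16, with a wt LPS mean of 3.69 for Mpo. The part of these cell types in the Irf8 values was not tested.

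**Figure D2:**
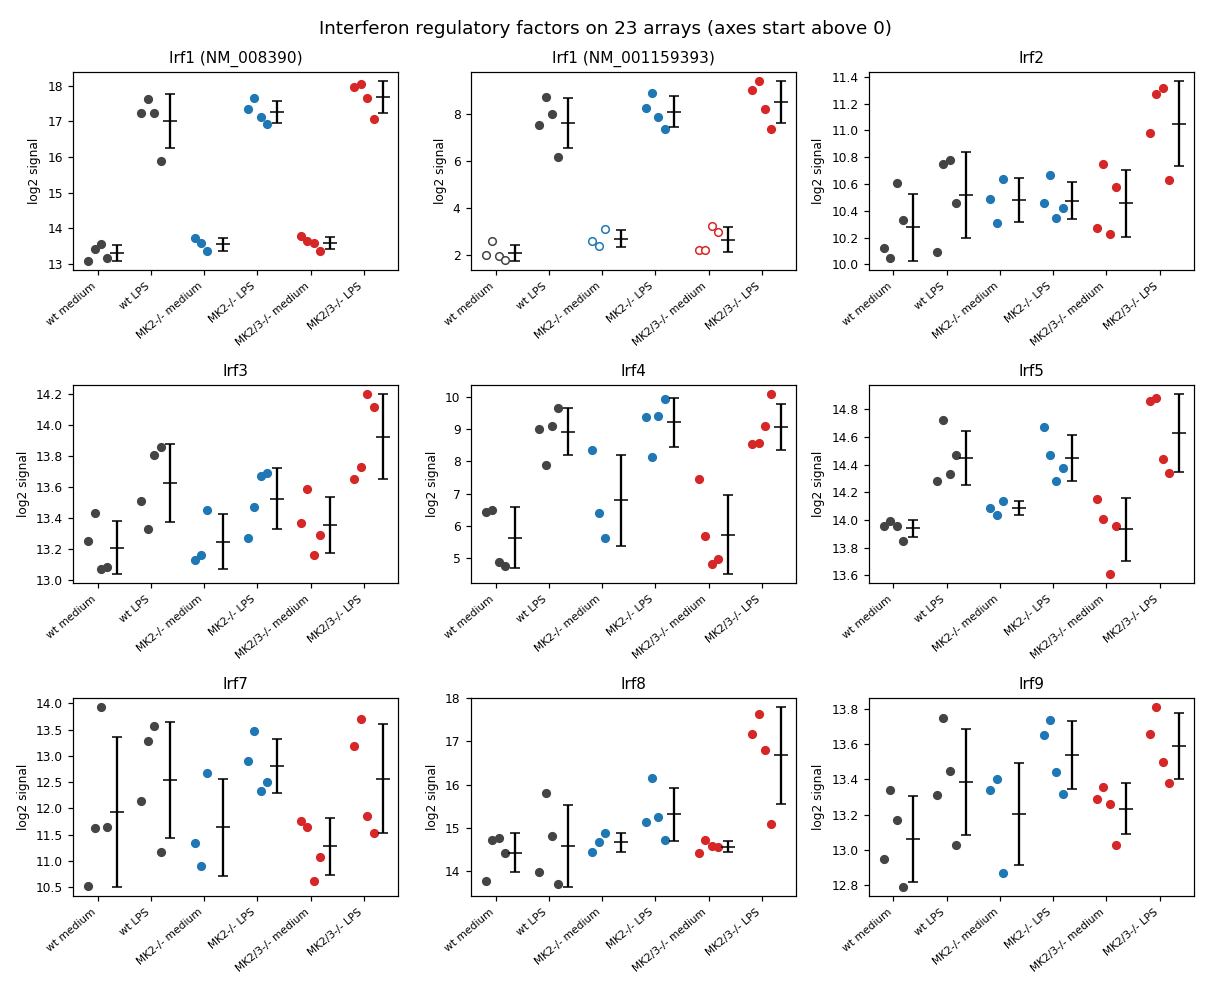
Log2 signal (vertical axes, which start above 0) of the 9 probes in each of the 23 arrays, by group, with the mean and SD of each group beside its points; open circles are values not well above background. Irf1 separates medium from LPS in all genotypes, Irf7 does not, and 3 of 4 MK2/3-/- LPS arrays hold the highest Irf8 signals, from 16.80 to 17.64.

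Irf9, which acts in the response of cells to interferon, differed little between LPS and medium, by much the same amount in each culture. Its group means in medium were 13.06 ± 0.24 (SD over 4 arrays) for wt, 13.20 ± 0.29 (3 arrays) for MK2-/- and 13.23 ± 0.15 (4 arrays) in MK2/3-/- BMDM, and after LPS 13.38 ± 0.30, 13.54 ± 0.19 and 13.59 ± 0.19. The differences were 0.32, 0.33 and 0.36, with adjusted p of 0.242, 0.245 and 0.145 by limma, so Irf9 was not called. That fit does not use the pairing of arrays by culture. With cultures as a replicate block the adjusted p from limma was 0.106, 0.113 and 0.0555, again not called. Within each of the 11 cultures that gave an array with and an array without LPS, the LPS array was brighter, by 0.25 to 0.45.

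Differences within cultures showed how far the other members varied. For Irf8 they were 0.21, 1.1, 0.04 and -0.73 in wt, 0.69, 1.49 and -0.18 in MK2-/- and 2.77, 2.93, 2.22 and 0.52 in MK2/3-/- BMDM. For Irf7 they were 1.60, 1.67, -0.35 and -0.47 in wt, 1.56, 2.57 and -0.17 in MK2-/- and 1.42, 2.05, 1.23 and 0.47 in MK2/3-/- BMDM. Irf4 differed by 2.59, 1.41, 4.22 and 4.90 in wt, by 1.02, 1.75 and 4.33 in MK2-/- and by 1.07, 2.90, 4.28 and 5.13 in MK2/3-/- BMDM. Irf4 was thus higher with LPS in every culture and most so in cultures 3 and 4, whereas Irf7 and Irf8 were lower with LPS in some cultures of wt and MK2-/- and in no culture of MK2/3-/- BMDM.

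**Figure D3:**
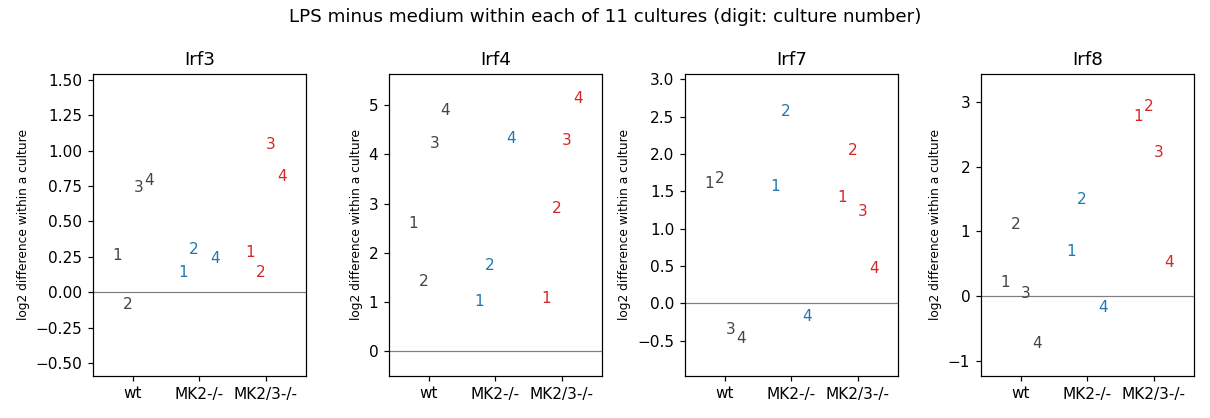
Log2 difference between the LPS and the medium array of the same culture (vertical axes) for Irf3, Irf4, Irf7 and Irf8, by genotype; each digit is a culture with its number. Irf4 is above 0 in all 11 cultures, and Irf8 ranges from -0.73 in wt culture 4 to 2.93 in MK2/3-/- culture 2.

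Compared between genotypes after LPS, 0 members were called in MK2-/- against wt by limma (0.0308% of all genes), with 0 at unadjusted p under 0.05 (7.5% of all genes) and 0 by the methods' t-test after adjustment. For MK2/3-/- against wt 1 member was called, Irf8 (1.64% of all genes), with Irf2 and Irf8 at unadjusted p under 0.05 (13.6% of all genes) and 0 by the adjusted methods' t-test. Irf1 enters these counts by its dim probe, and its bright probe was also under 0.05 before adjustment in that comparison. Between MK2/3-/- and MK2-/- limma called 0 members (0.162% of all genes), with 3 at unadjusted p under 0.05 (Irf2, Irf3 and Irf8; 7.91% of all genes) and 0 by the adjusted methods' t-test. That t-test called 3, 5 and 3 of all genes after adjustment in the 3 comparisons. Without adjustment it called 0, 1 (Irf8) and 1 (Irf2) members and 1402, 2417 and 1705 of all genes. All 8 members had a higher mean in MK2/3-/- than in wt BMDM after LPS, with a median difference of 0.25 beside 0.01 over all genes. These differences ran from 0.02 for Irf7 to 2.09 for Irf8. MK2-/- exceeded wt in 5 members (median 0.21 beside 0.01), and MK2/3-/- exceeded MK2-/- in 6 (0.29 beside -0.01). The share of all genes with a higher mean is not given here, so these counts are no result about the members in particular. Probes well above background were 48.4% to 55.4% on MK2/3-/- LPS arrays and 56.2% to 60.8% on wt LPS arrays. The part of this in the differences was not tested. The MK2/3-/- arrays and the wt arrays each enter more than 1 of these comparisons.

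In medium, limma called 0 members for MK2-/- against wt (0.00769% of all genes), 0 for MK2/3-/- against wt (0.0769%) and 0 for MK2/3-/- against MK2-/- (0.0462%), with 0 at unadjusted p under 0.05 in each (3.42%, 4.63% and 3.55% of all genes) and 0 by the adjusted methods' t-test. Without adjustment the methods' t-test on log2 values called 1 (Irf5), 0 and 0 members and 1419, 1275 and 1116 of all genes. The median differences over the members were 0.18, 0.14 and -0.08. For Irf5 all 3 MK2-/- medium arrays lay above all wt medium arrays, by a mean of 0.15 (exact permutation p = 0.0286, adjusted p = 1.00 by limma). The share of all genes with such a separation is not given here, so this is no result about Irf5 in particular. The interaction of genotype and LPS was called by limma for 0 members in MK2-/- against wt (0.00385% of all genes), 0 in MK2/3-/- against wt (0.0115%) and 0 in MK2/3-/- against MK2-/- (0%), with 0, 1 (Irf8) and 1 (Irf2) at unadjusted p under 0.05 (1.91%, 4.54% and 2.88% of all genes).

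Genes that act upstream of the IRFs were read from a list of 25 receptors, adaptors and kinases, all measured. In wt BMDM 13 of them rose and 3 fell after LPS, with a median log2 difference of 0.72, in MK2-/- 13 rose and 4 fell (median 0.76) and in MK2/3-/- 13 rose and 2 fell (median 0.60). Of all 25998 genes 8.26%, 8.5% and 11.9% rose, and 2312, 2630 and 3367 genes fell, which are the shares for the list counts without a block. With cultures as a replicate block 14, 15 and 14 of this list rose and 3, 4 and 3 fell, where 2681, 2838 and 3851 of all genes rose and 3035, 3335 and 4188 fell, which are the shares for the list counts with the block. In wt BMDM the RNA sensor Ifih1 rose by 3.84 (standard error 0.38), the DNA sensor Cgas by 2.70, the TBK1-binding adaptor Tank by 2.57 and the kinase Ikbke by 2.48, with adjusted p from limma of 4.63e-07, 4.24e-06, 8.97e-07 and 2.63e-05. On linear values the methods' t-test did not call Ifih1 (adjusted p = 0.0875) or Cgas (0.0877). No gene of this list was called between genotypes in medium or after LPS with limma. Of all genes 0.00769% to 1.64% were called in these comparisons, so this is no result about the list in particular.

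Of 16 partners of IRFs and components of interferon signalling, 4 rose and 1 fell in wt BMDM after LPS, 6 rose and 2 fell in MK2-/-, and 8 rose and 1 fell in MK2/3-/-. The counts of 6 and 8 include Spib, whose probe was well above background on 1 LPS and 0 medium arrays in MK2-/- and on 0 of either in MK2/3-/-, so that its rise rests on signals near background. Over all 25998 genes 8.26%, 8.5% and 11.9% rose and 2312, 2630 and 3367 genes fell, and the counts of all genes with the block are given above. The replicate block gave 6, 8 and 9 higher and 1, 3 and 2 lower. The medians were 0.39, 0.78 and 0.63. In wt BMDM the receptor kinase Jak2 rose by 3.55 (adjusted p = 4.3e-10), Batf2 by 3.30 (adjusted p = 0.00227), Batf by 3.25 (adjusted p = 9.02e-05) and the interferon receptor chain Ifnar1 by 1.03 (adjusted p = 0.000516), by limma. On linear values the methods' t-test did not call Batf2 (adjusted p = 0.197) or Batf (0.0804). The size for Ifnar1 depended on the setting, from 0.43 to 1.17, and its call was kept in each. BATF proteins bind DNA together with IRF4 or IRF8.

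Batf3 was the 1 gene of that list called between genotypes, in MK2/3-/- against wt BMDM after LPS, where 1.64% of all genes were called. It was 1.95 higher on the log2 scale in MK2/3-/- BMDM (standard error 0.42, adjusted p = 0.0246 with limma). Its LPS response measured -0.11 for wt (adjusted p = 0.939), 0.78 for MK2-/- (adjusted p = 0.287) and 2.08 for MK2/3-/- BMDM (adjusted p = 0.000943), and the interaction for MK2/3-/- against wt was 2.19 (adjusted p = 0.446). The genotype call of Batf3 was lost without wt LPS replicate 1 (1.72, adjusted p = 0.102), MK2/3-/- LPS replicate 1 (1.64, 0.0809) or MK2/3-/- LPS replicate 2 (1.65, 0.088), with the compared groups alone (0.346), and under the methods' t-test on log2 (0.457) and linear values (0.596), within a range over all settings of 0.00329 to 0.596. Irf8 and Batf3 had the same order of genotype means after LPS and lost their calls without some of the same arrays. Both stand out by their call in MK2/3-/- against wt, which fixes most of that order. MK2-/- against wt after LPS was called for neither (limma, adjusted p = 0.735 and 0.811). The shared order is therefore no result about these genes.

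Of 8 corepressors and turnover factors of IRFs, 1 rose and 2 fell in wt BMDM, 1 rose and 3 fell in MK2-/-, and 1 rose and 2 fell in MK2/3-/-, with medians of -0.30, -0.49 and -0.36. Over all 25998 genes 8.26%, 8.5% and 11.9% rose and 2312, 2630 and 3367 genes fell, and with the replicate block 3, 3 and 2 of this list fell. Irf2bp1, which encodes an IRF2-binding corepressor, had log2 differences of -1.38 in wt (adjusted p = 3.66e-06), -1.75 in MK2-/- (5.01e-07) and -2.23 in MK2/3-/- BMDM (5.05e-09). After LPS its MK2/3-/- minus wt difference was -0.58 and was not called (limma, adjusted p = 0.0839). The ubiquitin ligase gene Trim21 rose by 2.21 in wt BMDM (adjusted p = 0.00138; 0.135 by the methods' t-test on linear values). Irf2bp2 had a difference of -2.31 in wt (adjusted p = 0.0293) that was no longer called by the methods' t-test for log2 values (0.0831), nor without wt LPS replicate 1 (-1.99, adjusted p = 0.0931), wt LPS replicate 2 (-1.88, 0.149), or wt medium replicate 1 (-2.36, 0.0511), 2 (-2.25, 0.0658), 3 (-2.31, 0.0605) or 4 (-2.32, 0.0592), within a range over all settings of 0.00748 to 0.149.

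IRF target genes showed the largest changes of the lists. Of 24 listed targets 21 were measured, and 14 rose for wt, 14 for MK2-/- and 19 for MK2/3-/- BMDM, with none called lower by limma (the 19 include Ifna4, well above background on 2 LPS and 0 medium arrays), and with medians of 4.06, 4.34 and 4.68. The share of all genes that rose was also largest in MK2/3-/- BMDM, at 11.9% beside 8.26% in wt and 8.5% in MK2-/-. With the replicate block 16, 15 and 19 targets rose. In wt BMDM Cxcl9 rose by 8.04, Cxcl10 by 7.61 and Rsad2 by 7.44 on the log2 scale (adjusted p = 1.37e-05, 6.42e-12 and 2.17e-09), of which Cxcl9 (0.317) and Rsad2 (0.097) were not called by the methods' t-test on linear values. The size for Cxcl9 depended on the processing and the arrays, from 5.68 with the normexp background correction to 8.91 over all settings.

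Ifnb1, the gene of interferon β, was not well above background on any medium array of wt or MK2-/- BMDM and on 1 of 4 in MK2/3-/-, and was at least 2642-fold higher after LPS in wt and at least 606-fold higher in MK2-/- BMDM in the processing used here. These folds depend on how signals near background are treated, and with the normexp background correction the log2 difference of Ifnb1 in wt was 8.57. After LPS the Ifnb1 signal averaged 14.87 ± 0.65 (SD over 4 arrays) for wt, 13.15 ± 1.12 for MK2-/- and 13.69 ± 0.72 for MK2/3-/- BMDM. MK2-/- minus wt was -1.72 (unadjusted p = 0.00124, adjusted p = 0.334 with limma) and MK2/3-/- minus wt was -1.18 (unadjusted p = 0.0179, adjusted p = 0.24), each on 4 of 4 arrays below the wt mean and neither called. MK2/3-/- minus MK2-/- was 0.54 (limma, unadjusted p = 0.245, adjusted p = 0.838) and was not called. No target was called between genotypes by limma in medium or after LPS. Of all genes 0.00769% to 1.64% were called in these comparisons, so this is no result about the targets in particular.

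The genes whose log2 signal ran most like that of a member over the 23 arrays were taken among those well above background on all arrays, as a description without a test. All arrays share the LPS contrast, which can raise correlations between genes that respond to LPS. The close genes differed in that response, with log2 differences in wt BMDM from 0.15 for Lypd2 to 8.23 for Gbp5. What the correlations rest on was not tested. Irf1 (bright probe) was closest to Cd69 (Pearson's r = 0.996), Myd88 (0.995) and Gbp5 (0.994), and Irf4 to Bhlhe40 (0.95), Cdc42ep4 (0.93) and Igsf6 (0.929). Irf9 was closest to Adar (0.953), Oas2 (0.93) and Parp10 (0.925), and Irf5 to Fcgr2b (0.931), Il2rg (0.928) and Samd9l (0.924). ADAR, OAS2 and PARP10 are products of interferon-induced genes. Irf8 was closest to Crebl2 (0.922), Themis2 (0.917) and Stag2 (0.916), and Irf7 to Cfb (0.912), Lypd2 (0.869) and Ms4a6b (0.825). Irf2 was closest to Gosr1 (0.904), Spop (0.889) and Tgs1 (0.853), and Irf3 to Spred2 (0.892), Entr1 (0.888) and Tfe3 (0.865).

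Promoters of the members were read from RefSeq on build GRCm38.p6, 300 bases around each annotated start on the gene's strand, and searched on both strands for the gamma-activated site GAS (TTCNNNGAA), the core of the interferon-stimulated response element ISRE (GAAANNGAAA) and the κB motif of NF-κB. Among 32851 promoters of that length 8.3% held GAS, 3.44% the ISRE core and 8.46% κB. Of the 11 promoters of the 8 members, 3 held GAS (Irf1, Irf2 and Irf8), 1 the ISRE core (Irf2) and 2 κB (Irf1 and Irf2). The matches did not overlap each other and are descriptions of letters, not of binding. Those of Irf1, called after LPS in all genotypes, and of Irf8 and Irf2, called in MK2/3-/- BMDM, are shown with the matches in capitals. Irf1 lies at chr11:53769764-53770063, with GAS and then κB, Irf8 at chr8:120736108-120736407, with 2 GAS matches, and Irf2 at chr8:46739495-46739794, with the ISRE core, GAS and κB in that order, all on the + strand.
Irf1: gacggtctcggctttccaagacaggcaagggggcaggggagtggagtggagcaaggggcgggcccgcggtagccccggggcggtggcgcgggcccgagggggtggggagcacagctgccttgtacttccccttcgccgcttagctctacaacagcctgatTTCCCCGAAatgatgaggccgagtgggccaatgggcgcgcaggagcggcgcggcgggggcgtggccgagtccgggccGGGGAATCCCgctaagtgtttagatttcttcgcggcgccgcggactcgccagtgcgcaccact
Irf8: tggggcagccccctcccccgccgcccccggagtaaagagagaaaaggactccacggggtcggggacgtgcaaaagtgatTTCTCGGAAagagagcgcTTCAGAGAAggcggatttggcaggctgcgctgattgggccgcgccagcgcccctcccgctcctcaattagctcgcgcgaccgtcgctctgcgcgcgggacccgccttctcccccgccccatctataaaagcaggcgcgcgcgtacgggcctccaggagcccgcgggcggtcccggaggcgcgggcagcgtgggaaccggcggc
Irf2: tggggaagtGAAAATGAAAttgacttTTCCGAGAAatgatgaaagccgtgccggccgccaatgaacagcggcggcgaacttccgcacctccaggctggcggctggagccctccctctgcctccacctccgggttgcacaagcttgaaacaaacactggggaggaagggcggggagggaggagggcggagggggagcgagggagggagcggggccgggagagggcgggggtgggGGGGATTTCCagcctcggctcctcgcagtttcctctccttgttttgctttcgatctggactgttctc

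The promoters of Irf3, Irf4, Irf5, Irf7 and Irf9 held none of the 3 motifs in these windows. Of these members, Irf4 was also called after LPS in all genotypes, Irf5 in wt and MK2/3-/- BMDM and Irf3 in MK2/3-/- BMDM. The absence of a match says only that these letters are not in these windows. Mapkapk2 lies on chromosome 1 and Mapkapk3 on chromosome 9, and no member lies on either.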

How the data were processed

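The deposited scanner files hold 1 Cy3 array each (Agilent SurePrint G3 Mouse 8x60K), in which the authors' Feature Extraction software (11.0.1.1) had turned spot images into a background-corrected intensity; the deposited series table holds the authors' quantile-normalized log2 values relative to each probe's median over all samples, and was used as an alternative. From the intensity, log2 signals were quantile normalized over 23 arrays after outlier spots were set missing and spots of a probe averaged. Of 55681 probes, 32869 carried NCBI accessions, 29150 of them RefSeq, of which 27509 matched RefSeq. Each of 25998 genes was read from its probe of largest wt induction, as in the methods, a choice that uses that contrast. Between 47.5% and 69% of probes were well above background per array.

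Group means were compared with limma (3.58.1, R 4.3.3, data.table version 1.17.8) fitted to all 6 groups, with Benjamini-Hochberg adjustment over all genes and a threshold of 0.05. The limma code was first tested on simulated data. Single members also got exact two-sided permutation tests. Promoters and figures used Python 3.11.15 and matplotlib 3.10.9. Named genes were all members, Mapkapk2, Mapkapk3, Ifnb1, cell type markers, the 4 largest called differences of each list in wt LPS against medium and in MK2/3-/- against wt after LPS, and the 3 closest genes per member. Some genes that this rule names are not reported here. Members and lists were chosen with earlier results of these data known.

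The pairing of medium and LPS arrays comes from replicate numbers and ages in the labels (MK2-/- medium replicate 3 with LPS replicate 4). Deviations from group means correlated by 0.358 to 0.775 in the 11 pairs over 12558 genes well above background on all arrays, so cultures were treated as paired in an alternative. Other alternatives were scaling, background, probe choice, filters, tests and each array left out.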

Additional observations from a re-analysis of the deposited data

Results flagged for a closer look

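The LPS response of Mapkapk3, a targeted gene, differed between MK2/3-/- and wt BMDM by -1.68 on the log2 scale (limma interaction, adjusted p = 0.0113). Against MK2-/- the difference was -1.41 and was not called (limma interaction, adjusted p = 0.356). The rise of Mapkapk3 in wt, 0.51 (limma, adjusted p = 0.0412), lost its call in 10 of 39 settings. A difference between groups in the effect of LPS singled Mapkapk3 out, and the cause was not tested. Among 60 groups of 4 arrays looked at for a far array, 1 had such an array, fewer than the 1 in 20 that chance gives: Mapkapk2 in MK2/3-/- LPS replicate 4 stood at 12.26, against 11.54 to 11.65 on the other 3 arrays.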

How the results depend on the processing

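Counts of called members and 59 single results were recomputed under 39 settings, or 37 for the interactions. Other printed results were not among these. Of the settings, 3 were chosen after seeing the data (Irf1 read from its bright probe, experiment number as a block across genotypes, and the 2 arrays without a gradient fit left out). Members called after LPS in wt BMDM numbered 3, but 5 under 75th percentile scaling, 4 with normexp, 4 with the culture block, 0 with the methods' t-test on linear values and 2 without wt medium replicate 4. In MK2-/- they numbered 2, but 5 under 75th percentile scaling, 1 when only the compared groups were fitted, 1 with that t-test on log2 and 0 on linear values, 1 without the arrays lacking a gradient fit and 1 to 2 with single arrays left out. In MK2/3-/- they numbered 6, but 7 under 75th percentile scaling and with normexp, 4 when only the compared groups were fitted, 3 with the t-test on log2 and 0 on linear values, and 5 to 6 with single arrays left out. For MK2/3-/- against wt after LPS the 1 call became 0 when only the compared groups were fitted, with both t-tests, without the arrays lacking a gradient fit, and 0 to 1 with single arrays left out. Counts of 0 in the other comparisons stayed at 0 in every setting run. The cause of these changes was not tested.

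Among the 59 single results, directions turned only near 0. Irf8 in wt went from 0.16 to between -0.26 and 0.45 with single arrays left out. Irf2 in MK2-/- went from -0.01 to 0.062 under 75th percentile scaling, 0.0027 with cultures as a block, and between -0.091 and 0.074 with arrays left out. Mapkapk3 in MK2-/- against wt turned from -0.03 to 0.058 under 75th percentile scaling and ranged from -0.11 to 0.084 with arrays left out.

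With culture as a replicate block (estimated correlation 0.241), 4 members were called after LPS in wt, with Irf3 added (adjusted p = 0.0479), no other member call changed, and the list counts moved as given beside them. Whether the same replicate number marks the same experiment in different genotypes is not given. Same-number pairs of different genotypes had a median correlation of 0.274 (33 of 44 over 0.1, from -0.112 to 0.819), and other-number pairs one of -0.104 (30 of 132 over 0.1). As a block across genotypes (estimated correlation 0.135) experiment numbers left 3, 2, 6 and 1 members called in the 4 comparisons above. Signals of probes not well above background, such as the Irf1 probe of NM_001159393 in medium, limit folds to bounds.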
